A study of Mus musculus with 24 samples.

Results

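Phase II conjugation enzymes attach a water-soluble group to drugs, hormones, bile pigments and dietary compounds. The gene set described here was taken by symbol: UDP-glucuronosyltransferases of families UGT1A and UGT2, cytosolic sulfotransferases (SULT) and glutathione S-transferases (GST). The rule found 57 genes among 43280 symbols, with 9 UGT1A, 9 UGT2, 18 SULT, 4 GST alpha, 7 GST mu and 10 other GST genes. UGTs transfer glucuronic acid from UDP-glucuronic acid in the endoplasmic reticulum. SULTs transfer sulphate from the donor PAPS in the cytosol. GSTs join electrophiles to the thiol of glutathione. In the gut these enzymes are expressed largely in the epithelium, where they meet compounds from the lumen.

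The study measured poly(A) RNA by sequencing in colon of female SCID mice (C.B-17/Icr-scid/scid, 7 weeks of age at purchase), a strain without mature T and B cells. The 4 Normal libraries came from untreated mice. In every other group, CD4+ T cells of BALB/c spleens, activated with Concanavalin A and IL-2, were transferred on day 0 to induce colitis, and the distal colon was taken on day 28. The 4 Vehicle libraries came from mice given 0.5% methylcellulose. In the groups MEKi 0.3 and MEKi 1, also with 4 libraries each, a MEK inhibitor in enteric microparticles was given by mouth daily at 0.3 or 1 mg/kg between days 17 and 27. In the groups Isotype and anti-TNF, again of 4 libraries each, a control antibody or an antibody against TNFa was injected every 4 days, beginning on day 17, at 0.1 mg per mouse. With no mature T or B cells of the host, the model lacks a normal T cell and B cell compartment, and the Normal mice received neither cells nor vehicle. Nothing in the labels says that replicates were separate animals, so p-values measure the spread between these libraries, which may be technical.

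Library totals ranged from 3052940 to 10587555 counts, with the deepest libraries in Isotype and anti-TNF. Levels are CPM, the count scaled to a fixed library total, as mean ± SD with n = 4 per group, and changes are log2 fold changes ± SE from edgeR's quasi-likelihood test with Benjamini-Hochberg adjustment over 14773 genes. For edgeR the SE was derived as the size of the log2 fold change over the square root of the test's F statistic. Such an SE is approximate, and unreliable for changes near 0. "Higher", "rose", "lower" and "fell" mean an adjusted p below 0.05. Markers of colon epithelium were abundant in every group, with a summed level of 22390 to 26980 CPM in Normal and 18984 to 25707 CPM in Vehicle. Leukocyte markers stood at 439 to 533 CPM in Normal and 2554 to 4801 CPM in Vehicle, and smooth muscle markers at 6618 to 8450 and 1497 to 3399 CPM. Pancreatic transcripts reached 6660 CPM in Vehicle replicate 4 and 5187 CPM in Isotype replicate 1, against 128 CPM or less in every other library. In a table of the whole series, 16 of 24 columns carry a name that does not match the sample whose own file holds those counts. Here each sample's own file set its group. With groups set this way, the T cell genes Cd3e, Cd3g and Lck had 13 to 19 summed counts per Normal library and 235 to 405 per Vehicle library. Under the table's names the ranges were 13 to 234 and 15 to 274. The antibody groups overlapped under either naming. By own files Isotype had 301 to 527 and anti-TNF 113 to 341. By the table they had 297 to 527 and 113 to 457, so these counts do not settle the antibody labels.

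Of the 57 genes, 29 passed the filter on low counts and were tested. Each of these had at least 4 libraries above the cutoff of 2.05 CPM outside Normal, so none passed through Normal alone. Of the 28 not tested, 12 had 0 counts in every library, which allows a level of up to 0.0218 CPM over all libraries (3 counts, counting error only). Those were Sult1e1, Sult2a1 to Sult2a7, Sult3a1, Ugt1a8, Ugt1a10 and Ugt2b37, among them the oestrogen sulfotransferase (Sult1e1) and the hydroxysteroid sulfotransferases (Sult2a). The other 16 had counts, and the highest level among them was 2.46 CPM for Gsta2. The tested genes were 3 UGT1A, 2 UGT2, 6 SULT, 3 GST alpha, 7 GST mu and 8 other GST genes.

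Sequence that members share limits what a count can say about 1 of them, so stretches of the UGT1A transcripts are shown first. In the UGT1A cluster (chromosome 1, 88095062 to 88220002 on mm10 for Ugt1a7c), genes start from different first exons and join common downstream exons. The first 60 coding bases of the 3 tested genes (GENCODE M21, 5′ to 3′) differ, while the last 60 coding bases are the same letters in each:
Ugt1a1, first coding bases: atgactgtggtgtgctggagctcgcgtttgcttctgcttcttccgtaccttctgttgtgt
Ugt1a6a, first coding bases: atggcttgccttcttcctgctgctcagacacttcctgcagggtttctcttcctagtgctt
Ugt1a7c, first coding bases: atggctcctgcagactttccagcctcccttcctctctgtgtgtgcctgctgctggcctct
All 3 genes, last coding bases: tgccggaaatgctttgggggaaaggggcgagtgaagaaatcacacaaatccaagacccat
The last 738 coding bases of Ugt1a1 and Ugt1a6a were identical, and the last 737 of Ugt1a1 and Ugt1a7c. Of all 50-base windows in the coding transcript, 73.0% in Ugt1a1, 46.4% in Ugt1a7c and 100% in Ugt1a6a also occurred in a transcript of another gene. Elsewhere that share was 92.9% in Gsta1 (with the predicted gene Gm3776 leading), 81.6% in Gstp2, 70.9% in Gstp1, 70.6% in Gstt3, 59.3% in Gstm3, 46.8% in Gstm1, 21.5% in Gstm6, 15.2% in Gstm2 and 13.8% in Sult1a1, and at most 4.01% in the other 17 tested genes. The coding sequences of Gstp1 and Gstp2 had 618 of 630 bases in common (98.1%). How reads shared between genes were counted is not given in the sources used here, so the values of these genes are uncertain as gene-specific levels.

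Per length of exon, the leading members in Normal colon were Gstm2 (248 CPM per kb), Gstm1 (237), Gstp1 (233), Gsto1 (207) and Sult1a1 (195), followed by Ugt2b34 (88.1) and Gsta4 (79.6). In Vehicle the order was different: Gstp1 led at 280 CPM per kb, then Gsto1 at 187, Gsta4 at 142 and Gstm2 at 117, while Sult1a1 stood 19th of 29 at 5.19. The summed level of all 57 genes was 2670 ± 205 CPM in Normal and 1402 ± 127 CPM in Vehicle. It was 1770 ± 412 CPM in MEKi 0.3, 2010 ± 400 in MEKi 1, 1239 ± 132 in Isotype and 1513 ± 437 in anti-TNF.

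**Figure D1:**
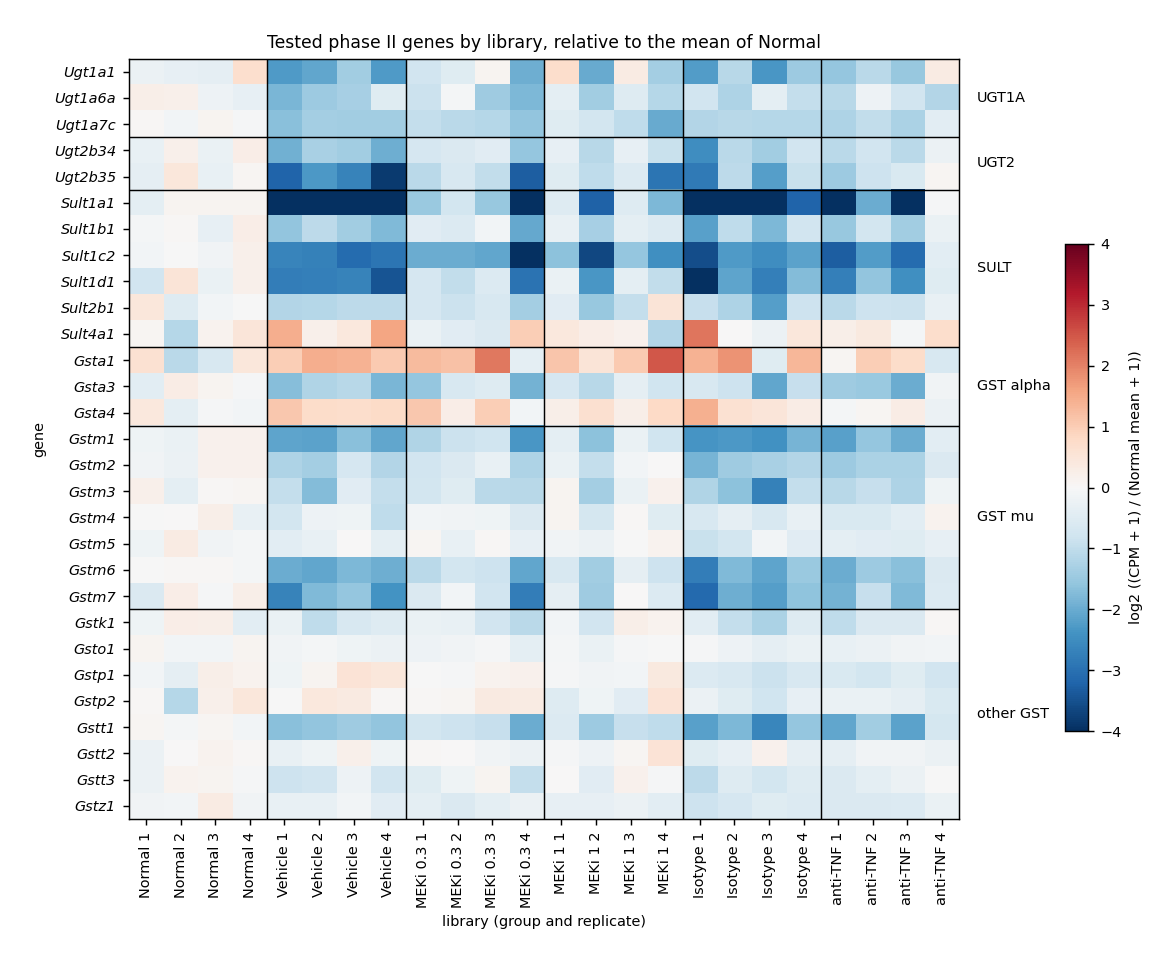
Level of the 29 tested genes (rows, by enzyme class) in the 24 libraries (columns), as log2 of (CPM + 1) over (Normal mean + 1), with the colour scale ending at −4 and 4. Most UGT, SULT and GST mu rows are blue throughout Vehicle and Isotype, while MEKi 0.3 replicate 4 and MEKi 1 replicate 2 are bluer than the rest of their groups and anti-TNF replicate 4 is paler.

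Colitis without a drug, the comparison of Vehicle with Normal, was marked by lower levels of most tested conjugation enzymes. Of the 29 tested genes, 20 fell and 1 rose, where 46.4% of all tested genes were called, 23.3% as lower and 23.1% as higher. All 5 UGT genes, 5 of 6 SULT genes, 5 of 7 GST mu genes, 4 of 8 other GST genes and 1 of 3 GST alpha genes fell. The median log2 fold change of the 29 genes was −1.30, against 0.00 for all tested genes. In 18 of the 21 genes called, the groups did not overlap. The same share was not counted for all genes called, so it does not set these members apart. These are bulk tissue samples, in which fewer cells of a type and less RNA per cell cannot be told apart.

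The largest fall was that of a sulfotransferase. Sult1a1, the phenol sulfotransferase (chromosome 7, 126672865 to 126676432), read 218, 306, 306 and 304 CPM in Normal and 5.97, 9.29, 6.82 and 8.0 CPM in Vehicle. Every Vehicle library was far below every Normal library, the Vehicle mean being 2.65% of the Normal mean, and the log2 fold change was −5.27 ± 1.13 (adjusted p = 0.00111). Sult1d1, which sulphates catecholamines and other small phenols (chromosome 5, 87554645 to 87569027), read 50.4, 124, 72.8 and 100 CPM in Normal. Its Vehicle libraries read 11.9, 12.3, 12.7 and 6.95 CPM. The ranges were apart, with a log2 fold change of −3.02 ± 0.66 (adjusted p = 0.00115). Sult1c2 (chromosome 17, 53829637 to 53846339) read 28.1, 30.1, 27.6 and 35.0 CPM in Normal and 4.05, 3.79, 2.68 and 3.16 CPM in Vehicle, a fall of tight groups with no overlap (−3.18 ± 0.68, adjusted p = 0.000899). Sult1b1, which acts on thyroid hormones and phenols, went from 178 ± 29.6 to 66.2 ± 14.3 CPM (−1.47 ± 0.38, adjusted p = 0.00356). Sult2b1, the cholesterol sulfotransferase, went from 47.4 ± 13.3 to 21.5 ± 1.04 CPM (−1.18 ± 0.35, adjusted p = 0.00819). Sult4a1, mainly a brain transcript, was the exception among the 6, with 2.64 ± 1.44 CPM in Normal, 6.50 ± 3.42 CPM in Vehicle and overlapping libraries (adjusted p = 0.105). Summed over all 18 SULT genes, the level was 629 ± 77.7 CPM in Normal and 117 ± 13.6 CPM in Vehicle.

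Glucuronosyltransferases fell in both families. Ugt2b34 (chromosome 5, 86889767 to 86906937), which made up most of the UGT transcripts, read 310, 440, 317 and 453 CPM in Normal and 99.8, 155, 145 and 97.3 CPM in Vehicle. Its groups did not overlap (−1.65 ± 0.32, adjusted p = 0.000322). Ugt2b35, a neighbouring gene (chromosome 5, 87000860 to 87013275), read 12.3, 22.3, 13.1 and 17.1 CPM in Normal. In Vehicle it read 0.853, 2.47, 1.71 and 0.211 CPM, or 25 counts in all 4 libraries, and the change was −3.63 ± 0.72 (adjusted p = 0.00043). Of the UGT1A genes, Ugt1a7c carried most counts, at 70.6, 63.9, 73.9 and 66.6 CPM in Normal and 20.9, 26.4, 25.6 and 25.5 CPM in Vehicle. It had the smallest p of all members (−1.52 ± 0.22, adjusted p = 1.11e-05). Ugt1a1, the bilirubin-conjugating enzyme (chromosome 1, 88211959 to 88218997), was scarce, at 3.90, 3.60, 3.55 and 8.23 CPM in Normal. Its Vehicle values were 0.213, 0.379, 1.22 and 0.211 CPM, 9 counts in all, with no overlap (−3.32 ± 0.94, adjusted p = 0.00646). Ugt1a6a, an enzyme of planar phenols, read 4.11, 3.93, 2.80 and 2.47 CPM in Normal and 0.213, 0.569, 0.731 and 2.11 CPM in Vehicle (−1.88 ± 0.60, adjusted p = 0.0132). All coding windows of Ugt1a6a, its first coding bases included, also occur in annotated transcripts of Ugt1a7c, so its change cannot be separated from theirs.

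Glutathione transferases of the mu class fell while those of the alpha class were split. Gstm1 (chromosome 3, 108012255 to 108017973), a major cytosolic transferase, read 287, 272, 368 and 368 CPM in Normal and 73.6, 73.0, 101 and 76.5 CPM in Vehicle. The Vehicle mean was 25% of the Normal mean, without overlap (−2.04 ± 0.37, adjusted p = 0.00019). Gstm6 read 25.8, 27.2, 27.4 and 25.1 CPM in Normal and 5.97, 5.5, 6.82 and 6.11 CPM in Vehicle, 2 tight groups with a change of −2.15 ± 0.34 (adjusted p = 3.52e-05). Gstm2 read 266, 250, 331 and 336 CPM in Normal and 125, 115, 185 and 132 CPM in Vehicle (−1.13 ± 0.24, adjusted p = 0.000759). Gstm7 read 11.5, 21.3, 17.0 and 21.0 CPM in Normal and 1.92, 4.55, 5.36 and 2.53 CPM in Vehicle (−2.34 ± 0.53, adjusted p = 0.0013). Gstm3, with 59.3% of windows shared, fell by 1.30 (adjusted p = 0.045). Gstm4 and Gstm5 were not called, at −0.57 ± 0.25 (adjusted p = 0.0584) and −0.31 ± 0.18 (adjusted p = 0.17).

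Gsta4, the alpha transferase that conjugates the lipid peroxidation product 4-hydroxynonenal, was the member that rose (chromosome 9, 78182774 to 78209349). It read 104, 59.3, 74.8 and 72.6 CPM in Normal and 166, 130, 127 and 133 CPM in Vehicle, so that every Vehicle library exceeded every Normal library (0.80 ± 0.25, adjusted p = 0.0122). Gsta1 read 20.1, 5.57, 7.84 and 17.7 CPM in Normal and 26.4, 37.0, 35.3 and 27.6 CPM in Vehicle, apart but not called (1.24 ± 0.59, adjusted p = 0.091). Gsta3 went the other way, from 7.14, 12.4, 10.8 and 9.67 CPM to 2.35, 3.79, 4.14 and 2.11 CPM (−1.72 ± 0.45, adjusted p = 0.00332). Among the remaining GST genes, Gstt1 of the theta class (chromosome 10, 75783813 to 75798584) had the smallest p, at 50.9, 46.2, 51.7 and 44.8 CPM in Normal and 14.5, 15.6, 17.3 and 15.4 CPM in Vehicle. Both groups were narrow and far apart (−1.67 ± 0.30, adjusted p = 0.000136). Gstt3 read 43.7, 56.3, 55.6 and 49.0 CPM in Normal and 28.4, 29.6, 43.9 and 29.5 CPM in Vehicle (−0.68 ± 0.21, adjusted p = 0.0107). Gstk1, the mitochondrial and peroxisomal kappa enzyme, read 43.1, 58.6, 57.3 and 36.2 CPM in Normal and 40.1, 23.5, 30.7 and 33.9 CPM in Vehicle, with overlap (−0.65 ± 0.25, adjusted p = 0.0397). Its call was lost in 5 of 8 fits that left out 1 library (adjusted p = 0.0301 to 0.124). Gstz1, which also degrades tyrosine products, fell by 0.33 (adjusted p = 0.0456). Gsto1, Gstt2, Gstp1 and Gstp2 were not called, with log2 fold changes of −0.19 ± 0.11, −0.14 ± 0.19, 0.23 ± 0.16 and 0.17 ± 0.25. The 10 other GST genes summed to 731 ± 57.4 CPM in Normal and 673 ± 61.4 CPM in Vehicle, where the 7 GST mu genes summed to 735 ± 92.3 and 285 ± 54.6 CPM.

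**Figure D2:**
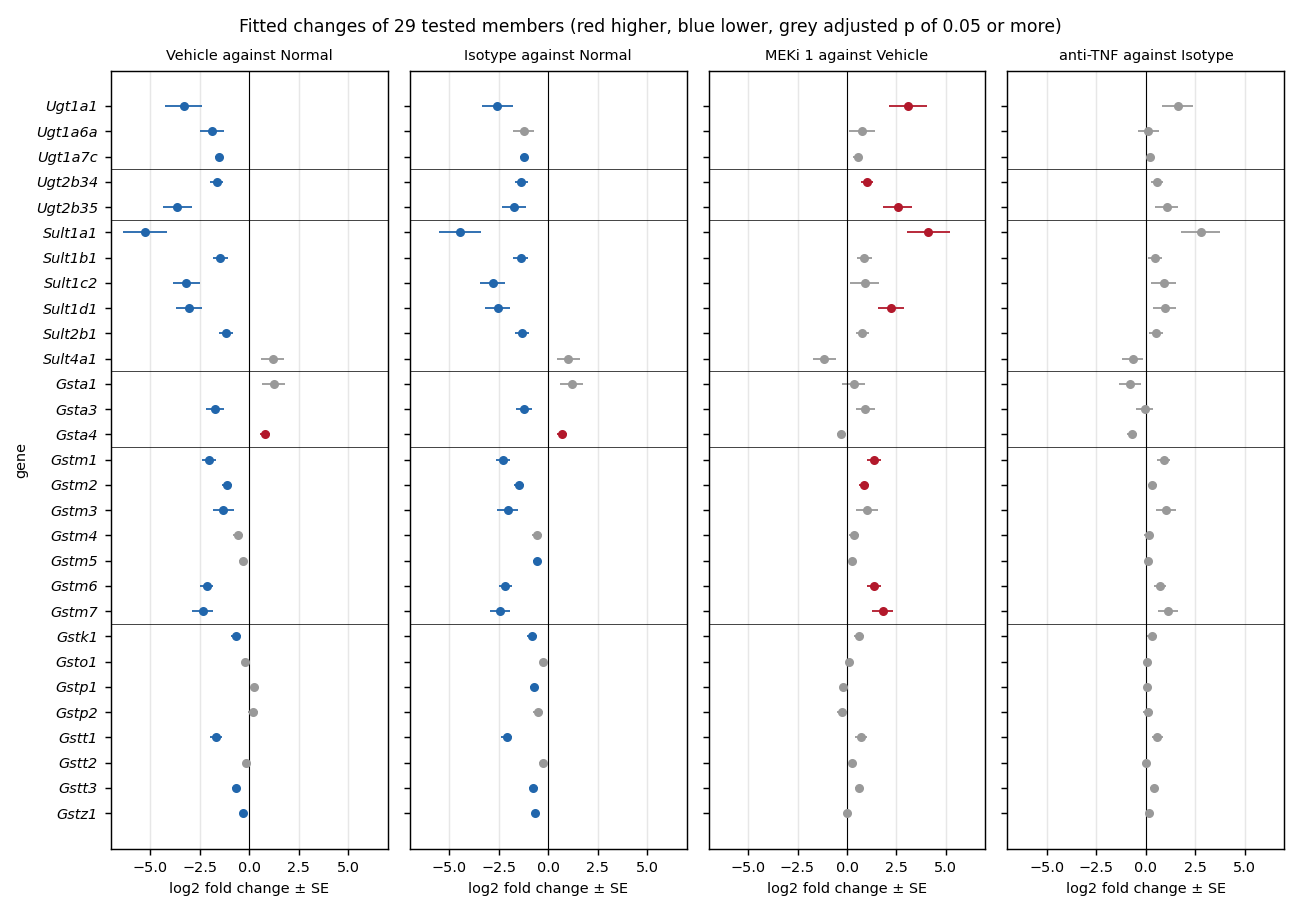
Log2 fold change ± SE (x axis) of each tested gene (y axis, by class) in 4 comparisons, red where higher, blue where lower and grey where the adjusted p was 0.05 or more. Panels against Normal share the Normal libraries, and panels with Vehicle share the Vehicle libraries. In Vehicle against Normal 20 genes are blue and Gsta4 is red, in MEKi 1 against Vehicle 9 are red, and in anti-TNF against Isotype none is coloured.

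Several marker lists moved with this contrast, in which 46.4% of all tested genes were called, 23.1% as higher and 23.3% as lower. Of 12 epithelial markers, 3 rose and 3 fell, and Epcam, which marks all gut epithelial cells, changed by −0.14 ± 0.12 (adjusted p = 0.34). Those that rose were the differentiation keratin gene Krt20 (0.51 ± 0.20, adjusted p = 0.0376), the intestinal factor gene Cdx2 (0.66 ± 0.24, adjusted p = 0.0281) and the claudin gene Cldn7 (0.65 ± 0.13, adjusted p = 0.000489). The cadherin gene Cdh1 fell by 0.76 (adjusted p = 5.1e-05). The anion exchanger gene Slc26a3 and the carbonic anhydrase gene Car1, both of mature colonocytes, fell by 3.49 and 3.70 (adjusted p = 0.000211 and 0.000226), the largest falls on the list. Without these 2 genes the epithelial sum was 18082 to 23683 CPM in Normal and 18562 to 25445 CPM in Vehicle. All 10 leukocyte markers rose, all 7 smooth muscle markers fell and all 4 tested adipocyte markers fell. The part of each in the fall of the conjugation enzymes was not tested. Of the liver list, Apoa1, Serpina1a, Fgb and Ahsg averaged 0.255 CPM or less in every group, and Alb averaged 6.34 CPM in Normal and 0.261 CPM in Vehicle. The sum of that list, 92.4 to 118 CPM in Normal and 8.43 to 18.4 CPM in Vehicle, rested mostly on Cyp2e1 (49.7 and 3.90 CPM) and Ttr (37.3 and 2.60 CPM). Of the 6 tested genes of that list 5 fell and 1 rose. Serpina1b averaged 0.505 CPM in Normal and 3.82 CPM in Vehicle, Apob 2.42 and 0.214 CPM, and Cps1 10.4 and 0.636 CPM. Without Vehicle replicate 4, the library with pancreatic transcripts, 18 conjugation genes were called. The number of all genes called in that fit is not given here, and the part of the pancreatic transcripts was not tested.

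The control antibody arm gave the same contrast with other colitis libraries against the shared Normal libraries. Isotype replicates 3 and 4 are among the 4 antibody libraries whose labels are in doubt, so they may belong to the anti-TNF group. In Isotype against Normal, 21 of 29 genes fell and Gsta4 rose (0.72 ± 0.25, adjusted p = 0.0241), where 41.2% of all genes were called, 20.3% as lower. Gstt1 read 10.0, 13.1, 7.17 and 15.9 CPM in Isotype, all below its Normal libraries (−2.10 ± 0.30, adjusted p = 1.31e-05). Gstm6 read 3.06, 6.99, 5.38 and 8.69 CPM (−2.16 ± 0.33, adjusted p = 2.56e-05) and Gstm1 62.6, 64.9, 59.0 and 89.3 CPM (−2.28 ± 0.37, adjusted p = 8.35e-05). Without the 4 antibody libraries in doubt, Gstt1, Gstm6 and Gstm1 were still called lower. Sult1a1 read 3.06, 14.2, 5.54 and 29.6 CPM, 4.62% of the Normal mean (−4.46 ± 1.05, adjusted p = 0.00271). Without Isotype replicate 1, the other library with pancreatic transcripts, 19 conjugation genes were called. Here too the number of all genes called is not given, and the part of these transcripts was not tested.

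Isotype and Vehicle were compared directly. 1 gene of 29 was called, where 2.99% of all genes were, 1.67% as lower. Gstp1, the pi-class transferase (chromosome 19, 4035407 to 4037985), read 130, 122, 104 and 123 CPM in Isotype. Its Vehicle libraries, at 171, 208, 278 and 263 CPM, were all higher (−0.95 ± 0.16, adjusted p = 0.00278). That call was lost with an offset for transcript length and without the 4 antibody libraries whose labels are in doubt (Isotype replicates 3 and 4, anti-TNF replicates 1 and 2). Its near copy Gstp2 read 36.3, 30.3, 24.3 and 33.9 CPM in Isotype and 41.8, 58.0, 55.3 and 44.2 CPM in Vehicle, also apart, and was not called (−0.69 ± 0.25, adjusted p = 0.144). Gstz1 read 26.4, 29.5, 34.0 and 32.0 CPM in Isotype and 38.2, 38.9, 44.1 and 34.1 CPM in Vehicle (−0.35 ± 0.13, adjusted p = 0.162). Gstp1 was also lower in Isotype than in Normal (−0.73 ± 0.16, adjusted p = 0.00121), where Normal read 176, 150, 226 and 211 CPM. It read 126, 114, 135 and 113 CPM in anti-TNF, below every Normal library (−0.67 ± 0.16, adjusted p = 0.0049).

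Given the MEK inhibitor at 1 mg/kg, mice with colitis had higher levels of 9 of 29 conjugation genes than Vehicle, and none was lower. Among all genes 10.6% were called, 6.08% as higher and 4.51% as lower. The 9 were Gstm1, Gstm2, Gstm6 and Gstm7 of 7 GST mu genes, Sult1a1 and Sult1d1 of 6 SULT genes, both UGT2 genes and Ugt1a1. No gene of the GST alpha class or of the other GST classes was called. The median log2 fold change of the 29 genes was 0.74, against 0.00 for all genes. The comparison uses the same Vehicle libraries as Vehicle against Normal, so values of all 3 groups are given side by side.

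Sult1a1 read 200, 29.3, 197 and 80.6 CPM in MEKi 1, all above the highest Vehicle library of 9.29 CPM and all below the lowest Normal library of 218 CPM (4.11 ± 1.09 against Vehicle, adjusted p = 0.0282). Replicate 2 was the lowest MEKi 1 library here and for each of the other genes but Ugt2b35, where replicate 4 was lower. Sult1d1 read 71.9, 16.5, 66.1 and 43.1 CPM, above Vehicle throughout and reaching into the Normal range in 2 libraries (2.21 ± 0.65, adjusted p = 0.0383). Of the UGT2 genes, Ugt2b34 read 303, 175, 301 and 205 CPM, between the Vehicle and Normal ranges (1.02 ± 0.31, adjusted p = 0.0421). Ugt2b35 read 11.4, 7.48, 10.7 and 1.26 CPM, with replicate 4 inside the Vehicle range (2.57 ± 0.74, adjusted p = 0.0337). Ugt1a1 read 8.44, 0.428, 6.38 and 1.26 CPM (3.08 ± 0.95, adjusted p = 0.0425). Here 2 libraries were as high as Normal and replicate 2, with 2 counts, was inside the Vehicle range.

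The mu-class transferases were 4 of the 9. Gstm6 read 16.7, 9.41, 20.2 and 14.5 CPM in MEKi 1, between Vehicle and Normal (1.36 ± 0.34, adjusted p = 0.0206). Gstm1 read 245, 103, 269 and 185 CPM, where replicate 2 was just above the highest Vehicle value of 101 CPM (1.35 ± 0.36, adjusted p = 0.0268). Gstm2 read 247, 151, 274 and 299 CPM, with replicate 2 inside the Vehicle range (0.85 ± 0.24, adjusted p = 0.0308). Gstm7, at 13.7, 5.99, 17.9 and 11.7 CPM, lay above Vehicle in each library (1.81 ± 0.54, adjusted p = 0.0374). In 6 of the 9 genes the groups did not overlap, a share that was not counted for all genes called. Gsta4, the member higher in Vehicle than in Normal, was not called here (−0.28 ± 0.25, adjusted p = 0.452). Nor was Sult1c2, at 8.90, 1.5, 9.69 and 4.72 CPM (0.89 ± 0.72, adjusted p = 0.416).

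**Figure D3:**
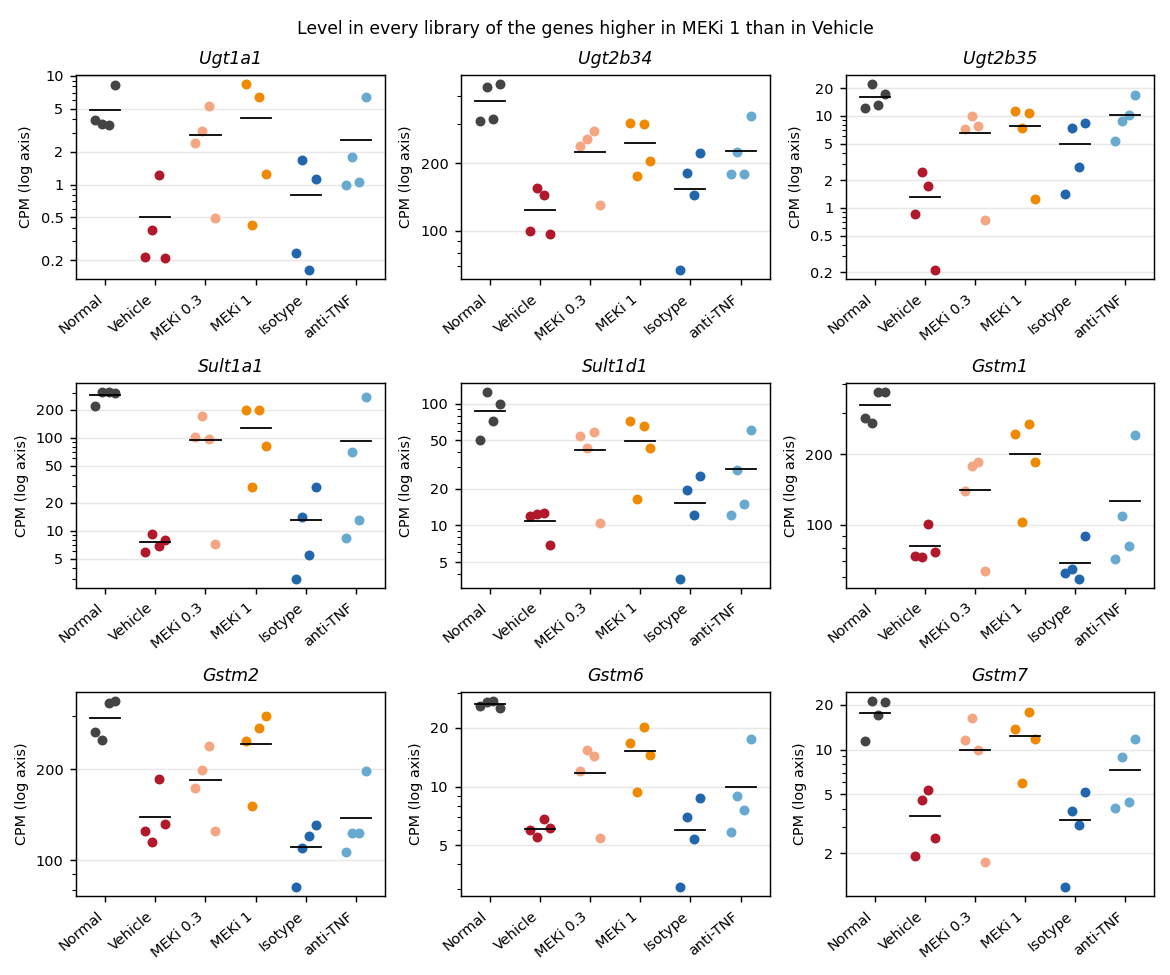
CPM on a log axis (y) in each library, by group (x), for the 9 genes higher in MEKi 1 than in Vehicle, with bars at the group means. For Sult1a1 the MEKi 1 libraries lie at 29.3 to 200 CPM, above Vehicle at 5.97 to 9.29 CPM and below Normal at 218 to 306 CPM, while MEKi 0.3 replicate 4 lies with Vehicle and anti-TNF replicate 4 with Normal.

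These 9 calls were close to the threshold, and their number depended on single libraries. It was 0 without Vehicle replicate 1, Vehicle replicate 4, MEKi 1 replicate 1 or MEKi 1 replicate 3, 2 without Vehicle replicate 2, and 12 without MEKi 1 replicate 2. All genes called fell in number from 1565 to 324, 128, 43, 220 and 812 in the same order, and were 2369 without MEKi 1 replicate 2, so the whole comparison moved with these libraries. The number of members was 2, Gstm6 and Sult1a1, with no filter on low counts and 10 by DESeq2. The number of all genes called is not given here for either fit, so neither count can be read as particular to the members. Every one of the 9 stayed positive in all leave-one-out fits, for example 3.80 to 4.45 for Sult1a1 and 1.18 to 1.58 for Gstm1. Between these groups 9 of 10 leukocyte markers fell, where 4.51% of all tested genes did, with sums of 526 to 1876 CPM in MEKi 1. No epithelial marker was called, and these summed to 22170 to 29761 CPM in MEKi 1. Of 7 smooth muscle markers 1 was higher, and their MEKi 1 sums of 2328 to 4280 CPM overlapped Vehicle. Of 6 fibroblast markers 2 were lower, of 6 tested liver-list genes 1 was higher, and of 9 pancreatic genes 1 was lower. The part of these lists in the 9 calls was not tested.

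At 0.3 mg/kg no conjugation gene was called against Vehicle by edgeR, where 1 gene of 14773 was called in all (0.00677%). At an unadjusted p below 0.05 there were 9 of 29 genes, and 17.9% of all genes. DESeq2 called Sult1a1 (3.66 ± 0.89, adjusted p = 0.0214), and the number of all genes it called is not given here. The 4 libraries were not alike: Sult1a1 read 101, 170, 97.7 and 7.19 CPM, Sult1d1 53.8, 43.6, 58.6 and 10.4 CPM, and Gstm1 140, 178, 185 and 63.7 CPM. Replicate 4 lay in or below the Vehicle range for each, and the other 3 lay above it. Without that replicate, 7 genes were higher than in Vehicle, namely Sult1a1, Sult1b1, Sult1d1, Ugt2b34, Ugt2b35, Gstm6 and Gstm7, with changes of 1.07 to 4.05, while the number of all genes called went from 1 to 1130. Leukocyte markers summed to 3401 CPM in replicate 4 and to 1529 to 1822 CPM in the other 3, and epithelial markers to 19454 against 24542 to 26362 CPM, and the part of either in the difference was not tested. With the replicate number as a planned block over all libraries, edgeR called 0 members and 1 gene in all. A fit of MEKi 0.3 and Vehicle alone with that block was added after seeing the data. It called 405 genes in all, of which 3 were members. They included Sult1d1 (1.81 ± 0.24, adjusted p = 0.0147) and Ugt2b35 (2.32 ± 0.35, adjusted p = 0.0164). The other was Ugt2b34 (0.86 ± 0.14, adjusted p = 0.0238). No label says that same-numbered libraries were paired. Whether they deviated together more than libraries of different number was not tested, so no conclusion is drawn from these 3 calls.

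Both doses were also compared with each other. No gene in the whole table was called by edgeR (0.00%). At an unadjusted p below 0.05 stood 1 of the 29 genes and 4.34% of all genes, and DESeq2 called none of the 29. The gene was Gstk1, at 45.4, 28.6, 57.9 and 53.8 CPM in MEKi 1 and 40.6, 39.6, 28.3 and 22.6 CPM in MEKi 0.3 (0.53 ± 0.25). For Sult1a1 the means were 127 ± 85.7 and 94.1 ± 66.9 CPM, with overlapping libraries.

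In anti-TNF against Isotype edgeR called no conjugation gene, where 0.0203% of all genes were called. DESeq2 called none of the 29 either. The 4 antibody libraries with labels in doubt belong to these groups, and some may carry the other group's name. Such an exchange could hide an effect, so the lack of calls does not show that there was none. Without these libraries edgeR also called no member, with fewer libraries in the fit. At an unadjusted p below 0.05 stood 5 of 29 genes, Gsta4, Sult1a1, Gstm1, Gstm6 and Gstm7, and 11.2% of all genes. Sult1a1 read 8.32, 70.3, 12.9 and 272 CPM in anti-TNF, so replicate 4 was inside the Normal range and replicates 1 and 3 were inside the Isotype range (2.77 ± 0.98, adjusted p = 0.307). Gstm1 read 71.8, 109, 81.7 and 243 CPM (0.89 ± 0.35, adjusted p = 0.351), again with replicate 4 far above the rest. Gsta4 read 73.4, 81.9, 95.3 and 66.1 CPM in anti-TNF and 208, 119, 110 and 95 CPM in Isotype (−0.72 ± 0.25, adjusted p = 0.288). For leukocyte markers anti-TNF replicate 4 had a sum of 658 CPM and the other 3 had 975 to 1574 CPM. A direct test of whether the effect of MEKi 1 against Vehicle differed from that of anti-TNF against Isotype called none of the 29 genes by edgeR or DESeq2, with 0.0135% of all genes called by edgeR. None of the 29 had an unadjusted p below 0.05, against 4.93% of all genes. That test used the same antibody libraries in doubt, so its lack of calls has the same limit. The difference was 1.52 ± 0.94 for Ugt2b35 and 0.32 ± 0.30 for Ugt1a7c.

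Each treated group was set against Normal, with the Normal libraries shared by all these comparisons. In MEKi 1, 3 genes were lower than in Normal and none higher, where 12.8% of all genes were called, 8.06% as higher and 4.79% as lower: Ugt1a7c (−0.98 ± 0.21, adjusted p = 0.00338), Sult1c2 (−2.29 ± 0.65, adjusted p = 0.0238) and Gstt1 (−0.97 ± 0.29, adjusted p = 0.029). Ugt1a7c read 49.0, 40.6, 33.7 and 16.1 CPM, below the lowest Normal value of 63.9 CPM. Gstt1 read 32.6, 17.1, 25.3 and 23.3 CPM, below 44.8 CPM. In MEKi 0.3, 7 genes were lower, where 19.9% of all genes were called, 9.06% as lower: those 3 and Gstm1, Gstm2, Gstm6 and Gstz1. In anti-TNF, 9 were lower, where 22.4% were called, 9.89% as lower: those 7 and Gsta3 and Gstp1. The last count was 17 without anti-TNF replicate 4, and 1 without the 4 antibody libraries in doubt. For MEKi 1 the count was 1 without Normal replicate 4 or without MEKi 1 replicate 2. The numbers of all genes called in these reduced fits are not given here, so such shifts cannot be read as particular to the members. Sult1a1 was not called against Normal in MEKi 1 (−1.16 ± 0.91, adjusted p = 0.419), although its MEKi 1 and Normal libraries did not overlap. Its mean was 44.8% of Normal in MEKi 1, 33.2% in MEKi 0.3 and 32.0% in anti-TNF.

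**Figure D4:**
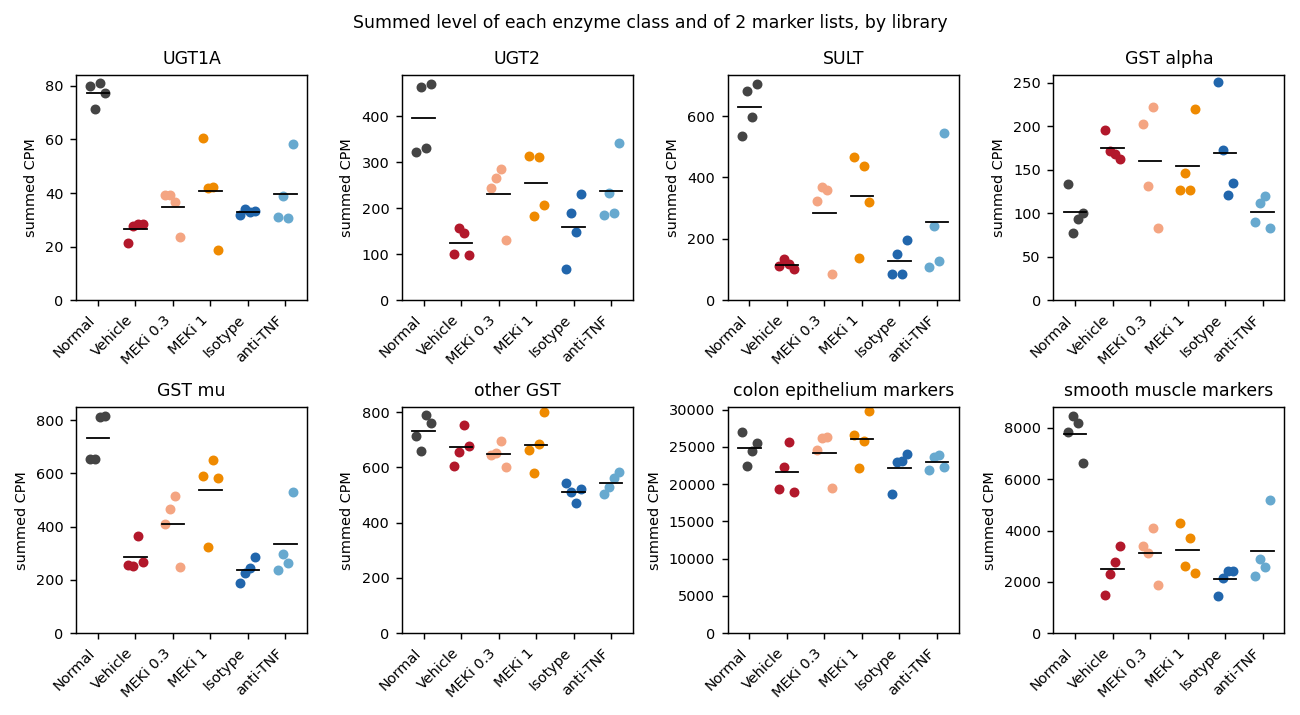
Summed CPM (y) of each enzyme class and of the epithelial and smooth muscle marker lists, by library and group (x), with bars at the group means. SULT sums lie at 535 to 704 CPM in Normal, 103 to 135 CPM in Vehicle and 137 to 466 CPM in MEKi 1, whereas the sums of other GST genes overlap between Normal and Vehicle.

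Lists of genes that supply the cofactors were tested too. Among all tested genes 46.4% were called in Vehicle against Normal, 23.1% as higher and 23.3% as lower. In MEKi 1 against Vehicle 10.6% were called, 6.08% as higher and 4.51% as lower. A count near these shares does not set a list apart. For sulphate, 7 genes were tested and 3 fell in Vehicle against Normal: the sulphate transporter gene Slc26a2 (−3.26 ± 0.50, adjusted p = 5.12e-05) and the PAPS synthases Papss2 (−1.09 ± 0.21, adjusted p = 0.000229) and Papss1 (−1.06 ± 0.21, adjusted p = 0.000286). Slc26a2 read 1320, 1290, 1040 and 1220 CPM in Normal, 129, 135, 138 and 123 CPM in Vehicle and 602, 211, 619 and 322 CPM in MEKi 1. Its MEKi 1 libraries lay between the other groups without overlap (1.78 ± 0.47 against Vehicle, adjusted p = 0.0273), and it was the 1 gene of that list called in MEKi 1 against Vehicle. Of 5 tested genes that supply UDP-glucuronic acid, 2 rose and 1 fell in Vehicle, with a median log2 fold change of 0.12. The gene that fell was Ugdh. Ugdh, which makes UDP-glucuronic acid, read 244, 274, 303 and 435 CPM in Normal and 58.9, 79.3, 88.5 and 61.5 CPM in Vehicle. Its change was −2.17 ± 0.36 (adjusted p = 9.12e-05), and it was higher in MEKi 1 than in Vehicle (1.26 ± 0.35, adjusted p = 0.0312). In the same list, the nucleotide sugar transporter gene Slc35d2 rose in Vehicle (1.60 ± 0.31, adjusted p = 0.000274) and was lower in MEKi 1 than in Vehicle (−1.19 ± 0.31, adjusted p = 0.0214).

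Of 12 genes of glutathione synthesis and recycling, 4 rose and 2 fell in Vehicle (median 0.30 on the log2 scale). Of all tested genes 46.4% were called in that comparison, so this count does not set the list apart. By smallest p the first 3 were the gamma-glutamyltransferase Ggt5 (1.32 ± 0.25, adjusted p = 0.000236), the cystine transporter gene Slc7a11 (3.48 ± 0.77, adjusted p = 0.0012) and glutathione reductase, Gsr (1.00 ± 0.24, adjusted p = 0.00211). Slc7a11 read 1.95, 2.29, 1.49 and 0.823 CPM in Normal and 21.3, 11, 6.82 and 35.2 CPM in Vehicle, without overlap. The 2 that fell, named after their values were seen, were Ggt6 (−0.75 ± 0.20, adjusted p = 0.00332) and the oxoprolinase gene Oplah (−1.47 ± 0.43, adjusted p = 0.00818). In MEKi 1 against Vehicle Ggt6 was higher and Gclc lower among the 12. Of 6 membrane-bound transferase family genes, 2 rose and 1 fell in Vehicle, and in MEKi 1 against Vehicle 1 was higher and 2 were lower. Those that rose were Alox5ap, whose product presents arachidonic acid for leukotriene synthesis (1.74 ± 0.41, adjusted p = 0.00155), and the prostaglandin E synthase gene Ptges (0.63 ± 0.18, adjusted p = 0.00755). Both were lower in MEKi 1 than in Vehicle (−1.81 ± 0.41 and −0.83 ± 0.19, adjusted p = 0.0148 and 0.0143). Mgst2, a microsomal transferase, fell by 0.72 in Vehicle (adjusted p = 0.0154) and was higher in MEKi 1 (1.02 ± 0.24, adjusted p = 0.0151).

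Of 12 tested targets of NRF2 outside these families, which include many antioxidant genes, 8 rose in Vehicle and 1 fell. Of all tested genes 23.1% rose and 23.3% fell. Leading the list were G6pdx (1.15 ± 0.15, adjusted p = 5.1e-06), Pgd (0.92 ± 0.17, adjusted p = 0.000206) and Txnrd1 (0.67 ± 0.17, adjusted p = 0.00239). The first 2 encode NADPH-producing enzymes and Txnrd1 a thioredoxin reductase. In MEKi 1 against Vehicle 2 of the 12 were lower, Abcc4 and Txnrd1. Among 16 genes of xenobiotic and epithelial regulators, 7 fell and 2 rose in Vehicle, where 46.4% of all tested genes were called. The lipid-sensing receptor gene Ppara went from 7.28 ± 1.18 to 0.488 ± 0.381 CPM (−3.91 ± 0.69, adjusted p = 0.00011), Hnf4a, a hepatic and intestinal differentiation factor, fell by 0.65 (adjusted p = 0.0014), and Keap1, whose product restrains NRF2, rose by 0.58 (adjusted p = 0.0016). Ppara (2.84 ± 0.73, adjusted p = 0.0214) and Hnf4a (0.55 ± 0.15, adjusted p = 0.0283) were the 2 genes of that list higher in MEKi 1 than in Vehicle.

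Other conjugating enzymes and hydrolases were tested as well, again in Vehicle against Normal, where 23.3% of all tested genes fell and 23.1% rose. Of 7 tested acetyl, methyl and amino acid conjugation genes 3 fell, among them the amine methyltransferase gene Inmt (−4.79 ± 0.99, adjusted p = 0.000592), with 8.83 ± 5.72 CPM in Normal and 0.285 ± 0.569 CPM in Vehicle. Of 11 hydrolases 7 fell, including the epoxide hydrolase gene Ephx2 (−2.68 ± 0.42, adjusted p = 3.49e-05) and the carboxylesterase gene Ces2c (−2.47 ± 0.50, adjusted p = 0.000623), and 2 rose. Among those that rose was Gusb, the beta-glucuronidase that removes glucuronic acid (1.73 ± 0.26, adjusted p = 2.4e-05). It read 45.7, 55.0, 47.6 and 36.8 CPM in Normal, 151, 159, 133 and 188 CPM in Vehicle and 74.1, 115, 70.2 and 60.8 CPM in MEKi 1, lower than Vehicle in each library (−0.94 ± 0.25, adjusted p = 0.0266). No gene of these 8 lists was called in anti-TNF against Isotype, where 0.0203% of all tested genes were called.

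Promoters of 26 tested members, 35 start sites in all, were found in RefSeq (GRCm38.p6), and the 250 bases before each start were searched on both strands for 5 motifs. Shown are the windows of the SULT and UGT2 genes among the 9 genes higher in MEKi 1, and that of the alpha-class gene Gsta3, which is not among the 9 and was chosen after its match to an antioxidant response element was seen. Capitals mark a match.
Sult1a1, chr7:126676419-126676668, minus strand: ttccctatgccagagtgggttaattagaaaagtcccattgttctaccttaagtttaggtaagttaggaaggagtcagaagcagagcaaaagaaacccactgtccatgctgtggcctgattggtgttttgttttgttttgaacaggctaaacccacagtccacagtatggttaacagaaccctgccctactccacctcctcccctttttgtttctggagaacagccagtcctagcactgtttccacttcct
Sult1d1, chr5:87569007-87569256, minus strand: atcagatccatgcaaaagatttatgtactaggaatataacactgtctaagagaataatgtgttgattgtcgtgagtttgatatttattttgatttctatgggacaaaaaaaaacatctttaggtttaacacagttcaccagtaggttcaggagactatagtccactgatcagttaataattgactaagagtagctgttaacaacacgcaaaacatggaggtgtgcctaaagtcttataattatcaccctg
Ugt2b34, chr5:86906938-86907187, minus strand: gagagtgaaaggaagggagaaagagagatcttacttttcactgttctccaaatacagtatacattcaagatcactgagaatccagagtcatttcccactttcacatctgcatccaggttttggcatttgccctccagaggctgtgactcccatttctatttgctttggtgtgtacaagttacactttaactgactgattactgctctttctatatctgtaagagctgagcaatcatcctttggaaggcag
Ugt2b35, chr5:87000610-87000859, plus strand: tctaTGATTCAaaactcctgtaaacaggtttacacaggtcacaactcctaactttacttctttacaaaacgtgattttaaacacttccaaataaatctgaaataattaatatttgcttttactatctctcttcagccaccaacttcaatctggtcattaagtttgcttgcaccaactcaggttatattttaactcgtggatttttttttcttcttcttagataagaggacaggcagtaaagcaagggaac
Gsta3, chr1:21240335-21240584, plus strand: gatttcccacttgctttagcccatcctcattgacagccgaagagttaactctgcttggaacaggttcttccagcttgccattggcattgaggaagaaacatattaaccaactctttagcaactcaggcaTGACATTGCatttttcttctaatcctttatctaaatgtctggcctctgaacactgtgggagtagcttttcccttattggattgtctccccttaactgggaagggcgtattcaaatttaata
The antioxidant response element TGACNNNGC occurred in 3 of the 35 members' windows (8.57%; Gsta3, Gstm5 and Gstm7) and in 10.2% of 32851 promoters. The AP-1 site, searched as TGANTCA with any centre base, occurred in 6 (17.1%; Gstm5, Gstp1, Gstp2, Sult2b1, Ugt1a6a and Ugt2b35) and in 6.75% of all. In Ugt1a6a and Ugt2b35 the letters were TGATTCA, and in the other genes TGACTCA or TGAGTCA. The CDX element TTTATNG occurred in 1 (2.86%, Gstm6) and in 9.81%. Neither the HNF4 element CAAAGTCCA (0.384% of all) nor the HNF1 element (0.00913%) occurred in a member's window. The element TGACNNNGC and the site TGANTCA can share bases, and each printed window held at most 1 match. A match describes letters, not binding.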

How the data were processed

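Sequencing was on an Ion Torrent instrument from poly(A) RNA, per the labels' protocols. The authors deposited whole-number read counts per gene for each of 24 libraries, and the submitters' processing notes name the build mm10. The annotation, strand setting and treatment of shared reads: not given in the sources used here. Groups were taken from each sample's own file and labels. The series table, with 16 of 24 columns named for another sample, served only as an alternative. The test was edgeR's quasi-likelihood test (version 4.0.16, R 4.3.3) with TMM scaling and a prior count of 0.125, fitted once to all 24 libraries in 6 groups, on 14773 genes kept by filterByExpr. The common dispersion was 0.0539. Adjusted p-values are over all tested genes, with a threshold of 0.05. Replicates differed by more than sampling noise (chi-square per gene 5.38 to 59.9 where the summed count reached 20), so each library counted as 1 sample. Library totals of 3052940 to 10587555 set the precision of low counts, and floors of 3 counts cover counting error only.

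Values by library were given for members called in a treatment comparison, for the 3 members of smallest p in each class in Vehicle against Normal, and for the 3 of smallest p in the Isotype comparisons. Up to 3 genes of smallest p were named per list of other conjugation genes and comparison. Further members with values by library were chosen after their values were seen. The members and lists were chosen with earlier results of these data known. Deviations of same-numbered libraries of MEKi 0.3 and Vehicle had correlations of 0.126, 0.125, 0.167 and 0.184 across genes. For Isotype and anti-TNF the correlations were 0.216, 0.0862, 0.142 and 0.342, so the pattern was not particular to MEKi 0.3 and Vehicle. Each of the other main comparisons included negative values. Libraries of different number were not correlated, so it was not tested whether these values exceed those of unmatched libraries. Alternatives were DESeq2 1.42.0, other normalizations and filters, a length offset, a replicate block, fewer samples and each library left out. The fit was tested on simulated data. Coding sequences were from GENCODE M21 and promoters from RefSeq, and proteins were not used here. The result for 1 listed gene is not reported here.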

Additional observations from a re-analysis of the deposited data

Results flagged for a closer look

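In 18 of 162 sets of 4 libraries (21 members and 6 class sums in 6 groups), the highest or lowest library stood apart from the other 3 by Dixon's criterion, which chance alone meets in about 5% of sets. Sets of 1 library's genes are not independent. MEKi 0.3 replicate 4 was low for Sult1c2 (0.496 CPM, others 6.35 to 6.92), for summed SULT (84.5 CPM, others 325 to 370) and for summed UGT1A (23.5 CPM, others 36.7 to 39.2). Anti-TNF replicate 4 was high for Ugt1a1 (6.36 CPM, others 1.00 to 1.78), Sult1c2 (22.4 CPM, others 2.15 to 5.58) and Gstz1 (39.2 CPM, others 31.7 to 32.2).

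Among Vehicle libraries, replicate 3 was high for Gstm1 (101 CPM, others 73.0 to 76.5), Ugt1a1 (1.22 CPM, others 0.211 to 0.379), Gstt3 (43.9 CPM, others 28.4 to 29.6) and summed GST mu (367 CPM, others 254 to 266). Vehicle replicate 1 was high for Gsta4 (166 CPM, others 127 to 133) and low for Ugt1a7c (20.9 CPM, others 25.5 to 26.4) and summed UGT1A (21.5 CPM, others 27.7 to 28.6). Vehicle replicate 4 was low for Sult1d1 (6.95 CPM, others 11.9 to 12.7). In Normal, Sult1a1 was low in replicate 1 (218 CPM, others 304 to 306), Gstz1 high in replicate 3 (60.3 CPM, others 42.6 to 43.9) and Ugt1a1 high in replicate 4 (8.23 CPM, others 3.55 to 3.90). MEKi 1 replicate 4 was high for Gstp1 (251 CPM, others 173 to 183).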

How the results depend on the processing

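Values below are numbers of the 29 conjugation genes called. The numbers of all genes called in the same fits are not given in this section, so no shift can be read as particular to these genes. Under the names of the series table the number was 0 in Vehicle against Normal, 1 in Isotype against Normal, 3 in Isotype against Vehicle, 0 in MEKi 1 against Vehicle, 0 in MEKi 1 and in MEKi 0.3 against Normal, and 1 in anti-TNF against Normal. Log2 fold changes reversed under those names in MEKi 1 against Vehicle (Gstm6 −0.60, Gstm1 −0.63, Sult1a1 −1.28, Gstm2 −0.19, Ugt2b35 −1.50, Gstm7 −0.42, Sult1d1 −0.90, Ugt2b34 −0.64, Ugt1a1 −0.98) and in Vehicle against Normal (Gsta3 0.08, Gsta4 −0.18, Gstt3 0.04, Gstm1 0.18, Gstm2 0.22, Ugt1a1 0.47). With no filter on low counts the number was 2 in MEKi 1 against Vehicle, 1 in MEKi 1 against Normal and 4 in MEKi 0.3 against Normal, and more genes were then adjusted for. Without the 4 antibody libraries in doubt it was 5 in MEKi 1 against Vehicle, 0 in Isotype against Vehicle and 1 in anti-TNF against Normal, with fewer libraries in the fit. Isotype against Vehicle gave 0 with a length offset and 2 with only the groups compared, and the cause was not tested. DESeq2 called 1 in MEKi 0.3 against Vehicle. With the replicate block the number was 21 in Vehicle against Normal, 22 in Isotype against Normal, 7 in MEKi 1 against Vehicle and 0 in MEKi 0.3 against Vehicle. A replicate block with only MEKi 0.3 and Vehicle, chosen after seeing the data, called 3. The block moved no other number. Leaving out 1 library at a time gave 18 to 21 in Vehicle against Normal, 19 to 23 in Isotype against Normal, 1 in Isotype against Vehicle, 0 to 12 in MEKi 1 against Vehicle, 0 to 7 in MEKi 0.3 against Vehicle, 1 to 3 in MEKi 1 against Normal, 5 to 9 in MEKi 0.3 against Normal and 7 to 17 in anti-TNF against Normal. It gave 0 throughout in both remaining drug comparisons and in the difference of effects. Ugt1a1 and Ugt2b35 rest on few counts in Vehicle, which limits their fold changes.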
